A study of Mus musculus with 8 samples.

Results

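The 10 genes described here make, break or move sphingomyelin and ceramide 1-phosphate, and were measured in RNA-seq libraries of mouse distal colon epithelium. They are the sphingomyelin synthases Sgms1 and Sgms2 with the related Samd8, the sphingomyelinases Smpd1, Smpd2, Smpd3, Smpd4 and Enpp7, the ceramide kinase Cerk and the ceramide 1-phosphate transfer protein Cptp. The 10 members were taken by symbol from a table of 54141 Ensembl gene IDs, and each matched 1 ID. The libraries came from mice homozygous for a mutant Degs2 allele (Degs2_KO, 4 libraries) and from wild-type mice (WT, 4 libraries), all on the strain background c57bl6/j. The colon pieces were shaken in EDTA and the released epithelial cells were strained before RNA extraction. Degs2 adds a double bond or a hydroxyl group to the sphingoid base, and the added hydroxyl gives phytoceramides, the lipids named in the study's title. The labels state neither how the Degs2 allele was made nor the age or sex of the mice. Nothing in the labels states that each library came from its own animal, so the p-values below measure the spread between libraries, which may in part be technical.

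Ceramide stands at a branch point. Sphingomyelin synthases move the phosphocholine head of phosphatidylcholine onto ceramide in the Golgi and at the plasma membrane, and sphingomyelinases cut it off again at acid, neutral or alkaline pH. Cerk phosphorylates ceramide to ceramide 1-phosphate, a signal that activates cytosolic phospholipase A2, and Cptp carries that lipid between membranes. In the gut, dietary and mucosal sphingomyelin is also broken down at the brush border by alkaline sphingomyelinase, the product of Enpp7.

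The libraries held between 32.8 and 49.8 M fragments, and the deposited scaled totals lay between 41622927 and 44606092. Levels are given as CPM, counts scaled to a common library total, after TMM normalization between libraries. Fold changes are Degs2_KO over WT. Degs2 itself was at 53.3, 47.8, 65.6 and 65.9 CPM in the Degs2_KO libraries, against 151, 110, 106 and 120 CPM in the WT libraries. The groups did not overlap (exact permutation p = 0.0286, 2-sided, the lowest possible with 70 assignments), while edgeR's adjusted p over all genes was 0.796. Whether the counted exons lie inside the altered part of the gene is not known, so the remaining reads check the labels only in part. Degs2_KO replicate 3 and WT replicate 1 stood apart from the other 6 libraries in genes that mark position along the gut. Hoxd13, a posterior homeobox gene, was at 0.300 CPM in Degs2_KO replicate 3 and at 0.695 CPM in WT replicate 1, against 38.8 to 85.3 CPM in the other 6. Without both libraries the log2 fold changes of the members ran from -0.15 for Cerk to 0.15 for Smpd4, and edgeR called 0 of them. Epithelial markers (Epcam, Cdh1, Krt8, Krt18, Krt19, Krt20, Vil1, Cdx1 and Cdx2) summed to between 13800 and 15600 CPM in Degs2_KO and between 13100 and 16800 CPM in WT. Summed T cell, myeloid, B and plasma cell, fibroblast, smooth muscle, endothelial, and neuron and glia lists reached at most 33.4 CPM each, and Emcn was at 0 in all 8 libraries. Goblet cell markers summed to 5560 to 25200 CPM in Degs2_KO and 10600 to 28700 CPM in WT. That sum covers 7 of the 9 listed goblet genes, since the others had a failed estimate. Enteroendocrine markers summed to 87 to 349 CPM in Degs2_KO and 103 to 246 CPM in WT. Stem cell markers summed to 260 to 296 CPM in Degs2_KO and 248 to 286 CPM in WT, and proliferation markers to 587 to 773 CPM in Degs2_KO and 395 to 683 CPM in WT.

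No member passed the test between the genotypes. Of the 10, 9 passed the filter on low counts and were tested, and edgeR's quasi-likelihood test called 0 of the 9 after Benjamini-Hochberg adjustment over all 16132 genes tested. That test called 0% of all genes, so the members' count equals the background. At an unadjusted p under 0.05 edgeR found 0 of the 9 members, beside 1.13% of all genes, and the Degs2_KO and WT ranges were separate for 0 of the 9, beside 1.05% of all genes. Of the tested members 6 were higher and 3 lower in Degs2_KO, with a median log2 fold change of 0.04, where the median over all genes was -0.007. Across the 9 the log2 fold changes ran from -0.07 in Sgms1 to 0.11 in Smpd4, with standard errors between 0.07 and 0.12. The 95% intervals reached at their widest a level of 0.814 of WT (Smpd3) and 1.29 times WT (Samd8). They lay within 1.5-fold of WT for 9 of 9 members, where 60.4% of all genes had such an interval. All genes here include genes at much lower levels than the members.

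**Figure D1:**
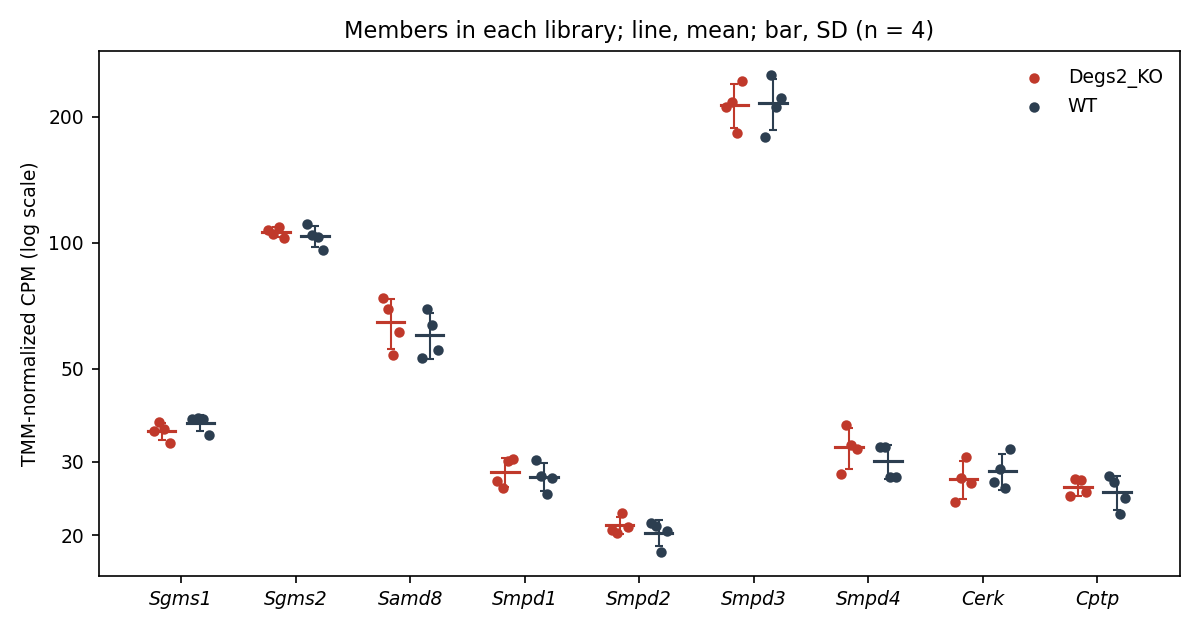
TMM-normalized CPM on a log scale for the 9 tested members, with 1 point per library, Degs2_KO left of WT, the mean as a line and the SD as a bar (n = 4 each). The ranges of the genotypes overlap for each gene shown, with Smpd3 highest near 214 CPM in Degs2_KO and 216 CPM in WT.

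**Figure D2:**
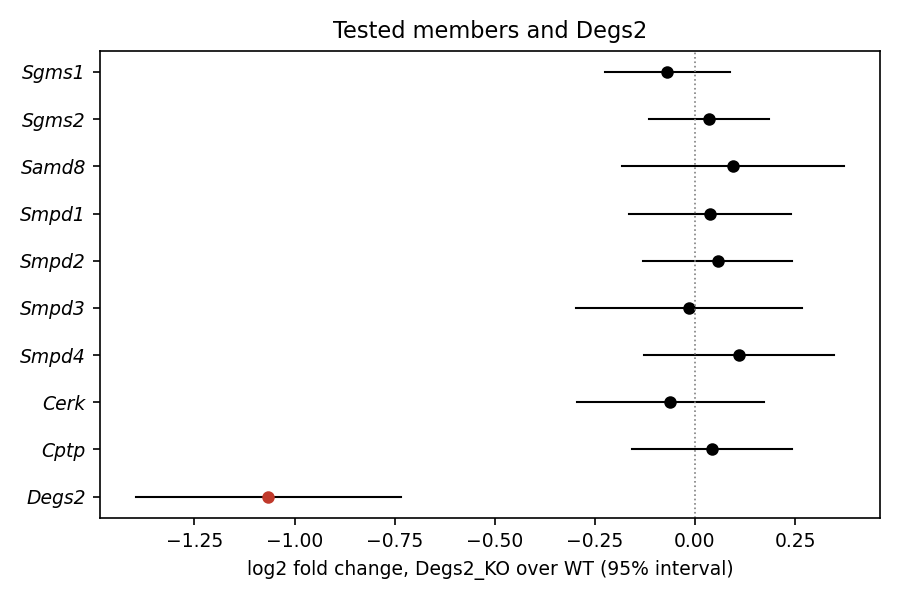
Log2 fold change of Degs2_KO over WT with its 95% interval for the 9 tested members and for Degs2. The intervals of the members include 0, while that of Degs2 lies between -1.40 and -0.74.

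Promoter windows from RefSeq on GRCm38.p6 were matched for 9 of the 10 members, all but Smpd3, with 18 annotated starts in all. In the 250 bases before each start a GC box was searched as GGGCGG, or as its reverse complement for the other strand, and a TATA box as TATAAA on both strands, with overlapping matches counted. GC boxes were found in 10 of the 18 windows, and in 32.7% of all 32851 windows of that length. TATA boxes were found in 0 of the 18, and in 12.4% of all windows. The acid and neutral sphingomyelinase genes Smpd1 and Smpd2, which were measured in all 8 libraries, each had 4 GC boxes, a number reached or passed by 4.09% of all windows. Among the other detected members with a single start, Cptp had 3 GC boxes, and Cerk and Smpd4 had 0. The Enpp7 window held 1 GC box, more than those of Cerk and Smpd4, and this gene was listed at 0 in 7 of the 8 libraries. The number of GC boxes therefore did not separate detected members from Enpp7. In the members with a single start, CpG dinucleotides numbered 34 in Cptp, 20 in Smpd2, 16 in Smpd1, 9 in Smpd4, 7 in Cerk and 5 in Enpp7. The median over all windows was 6. Among the detected members with more starts, the Samd8 windows held 5 and 10, and the Sgms2 windows 1 to 36. The 200 bases before the start are shown for 4 genes with a single annotated start: the detected members with the most GC boxes (Smpd1 and Smpd2), a detected member with 0 (Cerk), and Enpp7. Capitals mark GC boxes. Of the 4 boxes in each window, 3 lie wholly in the bases shown for Smpd1 and 2 in those for Smpd2. The matches describe the letters only.

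Smpd1, GRCm38.p6 chr7:105554160-105554359, plus strand: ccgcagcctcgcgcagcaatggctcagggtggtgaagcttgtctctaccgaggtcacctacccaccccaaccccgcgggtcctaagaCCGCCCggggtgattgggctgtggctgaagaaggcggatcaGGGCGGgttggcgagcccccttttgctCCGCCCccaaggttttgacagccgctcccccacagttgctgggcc
Smpd2, GRCm38.p6 chr10:41490341-41490540, minus strand: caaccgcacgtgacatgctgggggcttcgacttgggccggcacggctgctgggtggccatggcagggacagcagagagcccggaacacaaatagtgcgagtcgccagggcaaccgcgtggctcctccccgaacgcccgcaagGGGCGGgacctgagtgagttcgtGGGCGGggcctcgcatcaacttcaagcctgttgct
Cerk, GRCm38.p6 chr15:86186142-86186341, minus strand: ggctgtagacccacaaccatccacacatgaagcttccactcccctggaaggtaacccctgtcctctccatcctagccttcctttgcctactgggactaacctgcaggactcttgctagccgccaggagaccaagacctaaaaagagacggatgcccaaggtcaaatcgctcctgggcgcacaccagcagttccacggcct
Enpp7, GRCm38.p6 chr11:118987981-118988180, plus strand: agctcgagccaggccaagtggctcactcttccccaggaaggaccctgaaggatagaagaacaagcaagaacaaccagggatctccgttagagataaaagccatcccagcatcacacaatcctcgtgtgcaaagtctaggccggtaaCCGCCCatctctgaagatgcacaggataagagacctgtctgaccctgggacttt

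Among the synthases Sgms2 had the highest level per length and the smallest SD of log2 CPM. Sgms2, the synthase of the plasma membrane and Golgi, was at 107, 105, 109 and 103 CPM in the Degs2_KO libraries, against 111, 104, 103 and 96.0 CPM in the WT libraries. The Degs2_KO values lay inside the WT range. Its log2 fold change was 0.03 ± 0.07 (SE), with a 95% interval from 0.923 to 1.14 times WT and an exact permutation p of 0.514. Sgms2 (ENSMUSG00000050931) lies on chromosome 3 from 131318985 to 131491411, minus strand, on GRCm38, the assembly also called mm10.

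Sgms1, the synthase of the Golgi, was at 35.4, 37.2, 35.8 and 33.3 CPM in Degs2_KO, against 37.9, 38.2, 37.9 and 34.7 CPM in WT. Degs2_KO replicate 4 was below every WT library and the other Degs2_KO libraries lay inside the WT range. Its mean was 35.4 ± 1.62 CPM in Degs2_KO and 37.2 ± 1.66 CPM in WT (SD, n = 4 each), a log2 fold change of -0.07 ± 0.07 (SE) with an exact permutation p of 0.257. Sgms1 (ENSMUSG00000040451) lies on chromosome 19 from 32122727 to 32389714, minus strand.

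Samd8 encodes the third protein of the family, which makes small amounts of ceramide phosphoethanolamine in the endoplasmic reticulum and no sphingomyelin. It was at 73.6, 69.3, 53.8 and 61.2 CPM in Degs2_KO, against 53.1, 69.3, 63.6 and 55.4 CPM in WT. The lowest library of each genotype was the library with little Hoxd13, and Degs2_KO replicate 1 was the highest of all. Its log2 fold change was 0.10 ± 0.12 (SE), with a 95% interval from 0.882 to 1.29 times WT. Samd8 (ENSMUSG00000021770) lies on chromosome 14 from 21750531 to 21798726, plus strand.

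Among the sphingomyelinases Smpd3 had the highest level per length. Smpd3 encodes neutral sphingomyelinase 2, a membrane enzyme of the Golgi and plasma membrane known for its part in the release of exosomes. It was at 211, 218, 183 and 244 CPM in Degs2_KO, against 179, 252, 211 and 221 CPM in WT. All 4 Degs2_KO libraries lay inside the WT range. The mean was 214 ± 25.2 CPM in Degs2_KO and 216 ± 30.1 CPM in WT (SD, n = 4 each), a log2 fold change of -0.015 ± 0.12 (SE) with an exact permutation p of 0.857. The log2 fold change was 0.0019 without Degs2_KO replicate 1, 0.0538 without Degs2_KO replicate 3 and 0.0694 without WT replicate 2, so its sign is not fixed. Smpd3 (ENSMUSG00000031906) lies on chromosome 8 from 106252548 to 106337988, minus strand. Its exons share 247 bases with Prmt7 on the opposite strand, and since the strand setting of the counting is not given, reads of the shared stretch cannot be told apart.

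Smpd1, the acid sphingomyelinase of the lysosome, whose loss causes Niemann-Pick disease types A and B, was at 27.0, 25.9, 30.1 and 30.5 CPM in Degs2_KO, against 30.2, 27.7, 25.1 and 27.4 CPM in WT. The ranges nearly coincided, and the log2 fold change was 0.04 ± 0.09 (SE). Smpd1 (ENSMUSG00000037049) lies on chromosome 7 from 105554360 to 105558389, plus strand. The 20 lysosome genes read beside it, among them Lamp1, Ctsd and Npc1, had 13 members higher and 7 lower in Degs2_KO, a median log2 fold change of 0.02, and 0 called by edgeR.

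Smpd4, neutral sphingomyelinase 3 of the endoplasmic reticulum and nuclear envelope, had the largest log2 fold change of the 9, at 0.11 ± 0.10 (SE) with the smallest unadjusted p, 0.318 by edgeR. Its values were 28.0, 36.7, 32.9 and 32.1 CPM in Degs2_KO, against 32.4, 32.5, 27.6 and 27.6 CPM in WT. Degs2_KO replicates 2 and 3 were above every WT library, and Degs2_KO replicates 1 and 4 were below WT replicates 1 and 2. Smpd2, which carries the name neutral sphingomyelinase 1, was at 20.6, 20.3, 22.6 and 20.9 CPM in Degs2_KO, against 21.4, 21.0, 18.2 and 20.5 CPM in WT. Here 1 Degs2_KO library was above every WT library and the log2 fold change was 0.06 ± 0.08 (SE). Smpd4 (ENSMUSG00000005899) lies on chromosome 16 from 17619354 to 17644828, plus strand. Smpd2 (ENSMUSG00000019822) lies on chromosome 10 from 41485642 to 41490369, minus strand, where its exons share 905 bases with Mical1 on the opposite strand. Mical1 averaged 1380 scaled counts in Degs2_KO and 1190 in WT, and reads of the shared stretch cannot be assigned without the strand. Exons also overlap an opposite-strand gene in Sgms1 (2700046G09Rik, 10 bases) and in Cerk (Gm15569, 57 bases).

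Enpp7, the alkaline sphingomyelinase of the brush border, was not detectable at this depth in 7 of 8 libraries. Degs2_KO replicate 2 held 5 fragments, or 0.115 CPM, and the other 3 Degs2_KO libraries and all 4 WT libraries were listed at 0. A count of 0 allows up to 3 fragments, which correspond to between 0.0687 and 0.0693 CPM in those Degs2_KO libraries and between 0.0622 and 0.0948 CPM in the WT libraries, and this limit covers counting error only. Enpp7 was also at 0 in Degs2_KO replicate 3 and in WT replicate 1, the libraries with little Hoxd13. In the same libraries the small intestine and proximal gut list summed to 963 CPM in Degs2_KO replicate 3 and 1000 CPM in WT replicate 1, against 567 to 842 CPM in the other 6. Of its 22 genes 17 were tested, and Fabp1, Apoa1, Apoa4, Lct and Onecut2 had too few counts. Enpp7 (ENSMUSG00000046697) lies on chromosome 11 from 118988188 to 118993221, plus strand.

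The genes of ceramide 1-phosphate, Cerk and Cptp, did not pass the test. Cerk was at 24.0, 27.5, 30.8 and 26.6 CPM in Degs2_KO, against 26.8, 28.8, 25.9 and 32.2 CPM in WT. Degs2_KO replicate 1 was the lowest library and WT replicate 4 the highest, and the log2 fold change was -0.06 ± 0.10 (SE). Without Degs2_KO replicate 3 and WT replicate 1 it was -0.15 ± 0.11 (SE), with an unadjusted p of 0.221 by edgeR. It was 0.0044 without Degs2_KO replicate 1 and 0.0045 without WT replicate 4, so its direction rests on single libraries. Cptp was at 24.8, 27.3, 27.1 and 25.3 CPM in Degs2_KO, against 27.6, 26.8, 22.4 and 24.6 CPM in WT. All 4 Degs2_KO libraries lay inside the WT range, and the log2 fold change was 0.04 ± 0.09 (SE). Cerk (ENSMUSG00000035891) lies on chromosome 15 from 86139128 to 86186141 and Cptp (ENSMUSG00000029073) on chromosome 4 from 155864723 to 155869440, both on the minus strand.

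Levels of different genes were compared per kilobase of annotated exon. Smpd3 stood first with 40.9 ± 4.83 CPM per kb in Degs2_KO and 41.3 ± 5.76 CPM per kb in WT (SD, n = 4 each). Sgms2 came second with 17.0 ± 0.431 CPM per kb in Degs2_KO and 16.6 ± 0.969 CPM per kb in WT. Smpd3 was above Sgms2, and Sgms2 above the next gene, in each of the 8 libraries, and the ranges of these genes did not overlap. Their means also held the first and second place when levels were divided by the longest transcript or by the coding length. Per coding length the means were closer, at 109.3 CPM per kb for Smpd3 and 95.7 CPM per kb for Sgms2. On that length the ranges overlapped, and Sgms2 was above Smpd3 in Degs2_KO replicate 3 and WT replicate 1. Cptp, Smpd1 and Samd8 followed at means of 9.50, 8.39 and 8.17 CPM per kb over the 8 libraries. The range of Cptp overlapped that of Smpd1, and Smpd1 was above Samd8 in only 4 of 8 libraries, so Smpd1 and Samd8 cannot be ordered. Cerk at 5.78 and Smpd2 at 4.63 CPM per kb overlapped in range, although Cerk was above Smpd2 in all 8. Smpd4 at 3.46 and Sgms1 at 3.44 CPM per kb did not differ beyond their spread. These lower places depended on the length used, since Sgms1, with 10546 bases of annotated exon and a longest transcript of 4036 bases, moved from ninth to sixth place at 8.99 CPM per kb of the longest transcript.

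**Figure D3:**
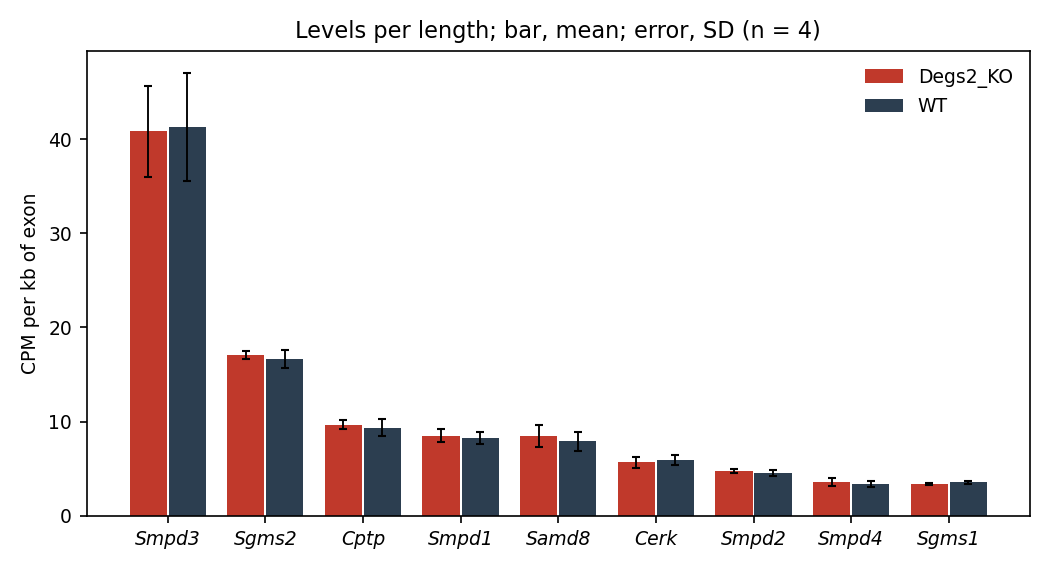
Level per kb of annotated exon, as bars from 0 with the SD (n = 4 each), Degs2_KO left of WT, in falling order. Smpd3 and Sgms2 stand above the other 7 members shown, and Sgms1 is the gene whose means (3.36 in Degs2_KO, 3.52 in WT) lie farther apart than either SD.

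Within each enzyme class the shares of the genes were set beside each other. Per length, Sgms2 made up 59.1% ± 2.65 of the summed level of the 3 synthase family genes in Degs2_KO and 59.3% ± 2.54 in WT (SD, n = 4 each). Samd8 made up 29.2% ± 2.94 in Degs2_KO and 28.1% ± 2.66 in WT. Sgms1 made up 11.1%, 12%, 12.1% and 11.4% in the Degs2_KO libraries, against 12.7%, 12.3%, 12.6% and 12.7% in the WT libraries. For this share the groups did not overlap, while they overlapped for the shares of the other members and for the CPM of Sgms1 itself. The Sgms1 share was singled out after its values were seen, and no test was made on it. It moves with the levels of Sgms2 and Samd8 as well as Sgms1. The groups were also separate, as settings chosen after seeing the data, per longest transcript (23.0% to 24.9% in Degs2_KO, 25.2% to 25.9% in WT) and per coding length (13.6% to 14.7% in Degs2_KO, 15% to 15.4% in WT). Without division by length the ranges were 16.4% to 18% in Degs2_KO and 18% to 18.8% in WT, which meet at this rounding. All these settings use the same counts and are not separate evidence. Among the 5 sphingomyelinase genes Smpd3 made up 70.7% ± 2.94 in Degs2_KO and 71.7% ± 3.67 in WT. Per kb of annotated exon the summed synthase family level, Samd8 included, was 0.503 ± 0.0486 of the summed sphingomyelinase level in Degs2_KO and 0.492 ± 0.0494 in WT. Per coding length the means over the 8 libraries were 95.7 for Sgms2, 42.99 for Samd8 and 23.97 CPM per kb for Sgms1. They were 109.3 for Smpd3, 16.46 for Smpd2, 14.88 for Smpd1 and 12.33 CPM per kb for Smpd4. On that length the synthase family sum was the higher of the sums. The shares and the ratio depend on the lengths used and describe RNA, not enzyme activity.

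For Smpd3, Samd8, Sgms2 and Smpd2 the same libraries were extreme in both genotypes. Smpd3 was lowest in Degs2_KO replicate 3 (183 CPM) and WT replicate 1 (179 CPM), against 211 to 252 CPM in the other 6 libraries. Samd8 was also lowest there, at 53.8 and 53.1 CPM, with WT replicate 4 close by at 55.4 CPM. Sgms2 was highest in these libraries, at 109 CPM in Degs2_KO replicate 3 and 111 CPM in WT replicate 1. Smpd2 was also highest there, at 22.6 and 21.4 CPM, against 18.2 to 21.0 CPM in the other 6 libraries. The per-length ratio of Sgms2 to Smpd3 was 0.502 in Degs2_KO replicate 3 and 0.519 in WT replicate 1, against 0.347 to 0.427 in the others. In the same libraries the distal colon position list summed to 428 CPM in Degs2_KO replicate 3 and 453 CPM in WT replicate 1, against 725 to 856 CPM elsewhere. The dissociation and heat shock list stood at 1280 CPM in Degs2_KO replicate 3 and 1180 CPM in WT replicate 1, against 2650 to 4140 CPM elsewhere. The absorptive colonocyte list stood at 10800 CPM in Degs2_KO replicate 3 and 10200 CPM in WT replicate 1, against 3770 to 7490 CPM elsewhere. In the same order the tuft cell list stood at 94.6 and 90.4 CPM, against 39.7 to 57.7 CPM. The enteroendocrine list stood at 349 and 246 CPM, against 87 to 188 CPM, and the T cell list at 27.4 and 33.4 CPM, against 3.89 to 18.1 CPM. The goblet cell list, summed over the 7 of its 9 genes with values, did not go with them. It was the lowest of all 8 in Degs2_KO replicate 3, at 5560 CPM, and the highest in WT replicate 1, at 28700 CPM. The part of these lists in the levels of Smpd3, Samd8, Sgms2 and Smpd2 was not tested. Fewer cells of a type and less RNA per cell cannot be told apart in bulk samples.

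Without both libraries the log2 fold change of Smpd3 was -0.02 ± 0.11 (SE) and that of Samd8 0.12 ± 0.11 (SE). Over the 8 libraries the SD of log2 CPM was 0.06 for Sgms2, 0.07 for Sgms1, 0.17 for Smpd3 and 0.18 for Samd8, where the median over all tested genes was 0.22. The 9 tested members stood between the 2.1 and the 40.5 percentile of all tested genes in this SD. All tested genes include genes at much lower levels than the members, and genes of like level were not compared.

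**Figure D4:**
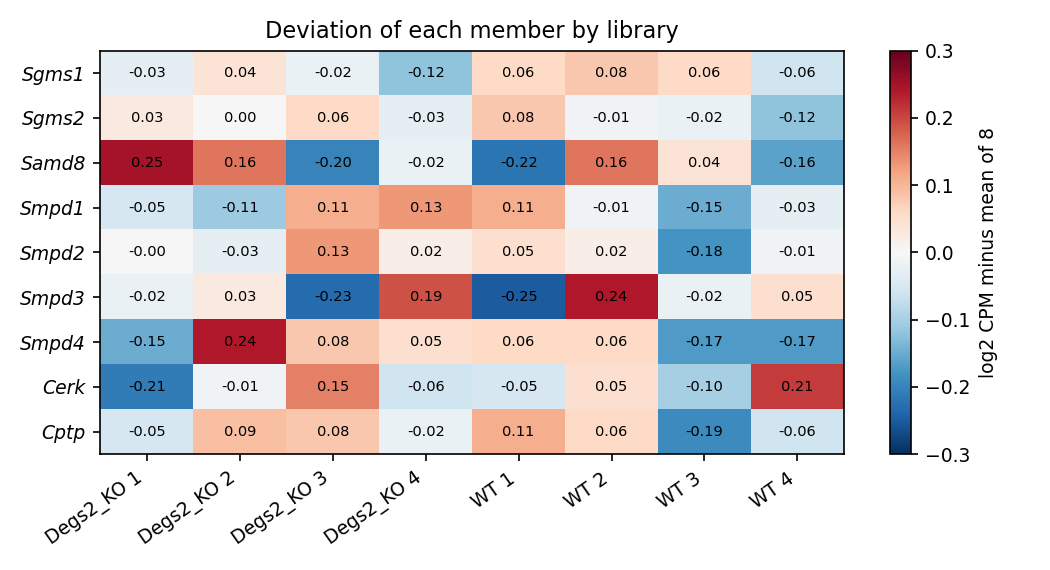
Log2 CPM of each tested member minus its mean over the 8 libraries, with Degs2_KO libraries left of WT libraries. Smpd3 and Samd8 are low in Degs2_KO 3 (-0.23 and -0.20) and in WT 1 (-0.25 and -0.22), and WT 3 is low for Smpd1, Smpd2, Smpd4 and Cptp.

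WT replicate 3 was the lowest of all 8 libraries for Smpd1, Smpd2 and Cptp, at 25.1, 18.2 and 22.4 CPM. Without it the log2 fold changes of Smpd1 and Cptp were -0.0038 and -0.0105, so the direction of these small differences rests on that library.

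The genes whose log2 CPM most closely followed those of Smpd3, Sgms2 and Cptp, the first 3 members per kb of annotated exon, over the 8 libraries were sought among 10884 other protein-coding genes. Cptp was in place 4 per longest transcript and per coding length, so its place among the 3 depends on the length used. They were Mansc1, Tm9sf4 and Ppfia1 for Smpd3, with Pearson r of 0.971, 0.959 and 0.958. For Sgms2 they were Psmg3, Mrps26 and Pdcd5, with r of 0.979, 0.978 and 0.969, and for Cptp Adrm1, Cox18 and Psmd2, with r of 0.981, 0.977 and 0.966. The points share library preparation and depth, and r passed 0.9 with 69 genes for Smpd3, 81 for Sgms2 and 54 for Cptp. Over the 6 libraries that did not stand apart r was 0.908, 0.872 and 0.881 for the Smpd3 genes, between 0.959 and 0.990 for the Sgms2 genes and between 0.961 and 0.985 for the Cptp genes. The genes were picked over 8 libraries that include these 6, so a high r here is in part built in.

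Of the other genes of the pathway edgeR called 0 in either direction, and 0 had an unadjusted p under 0.05. Related enzymes and regulators, which include the ceramide transfer protein gene Col4a3bp (CERT), its docking partners Vapa and Vapb and the lipid phosphatases Plpp1 to Plpp3, had 6 of 12 tested genes higher, 6 lower and a median log2 fold change of 0.004. Col4a3bp itself, which feeds ceramide to the synthases in the Golgi, had a log2 fold change of -0.004 ± 0.15 (SE). The 2 smallest unadjusted p in this list belonged to Smpdl3b, a phosphodiesterase related to acid sphingomyelinase, at 9.95 ± 1.76 CPM in Degs2_KO and 8.09 ± 2.37 CPM in WT (SD, n = 4 each), and to Plekha8, a glucosylceramide transfer protein, with a log2 fold change of -0.09 ± 0.07. Smpd5 had too few counts to be tested.

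Phosphatidylcholine is the donor of the head group, and of 12 genes for the supply of phosphatidylcholine and phosphatidylethanolamine 4 were higher and 8 lower, with a median of -0.03. Pemt, which methylates phosphatidylethanolamine to phosphatidylcholine, had a log2 fold change of 0.33 ± 0.19 (SE) at 2.87 CPM in Degs2_KO and 2.28 CPM in WT, and the choline transporter gene Slc44a2 had one of -0.12 ± 0.08. De novo ceramide synthesis had 9 of 14 tested genes higher and 5 lower, with a median of 0.03. The extremes were Cers3 and Degs1, a ceramide synthase and the related desaturase, at -0.60 ± 0.30 and 0.31 ± 0.21, with Cers3 at the low level of 0.259 CPM in Degs2_KO and 0.403 CPM in WT. Of the other routes of ceramide use 6 genes were higher and 10 lower, with a median of -0.02. The sulfatide-forming Gal3st1 and the alkaline ceramidase Acer2 had the smallest unadjusted p, with log2 fold changes of -0.14 ± 0.09 and 0.13 ± 0.08. In the lysosome list these were Mcoln1, a cation channel, and Neu1, a sialidase, at -0.16 ± 0.08 and -0.29 ± 0.17. All of these lists had medians within 0.04 of 0 on the log2 scale, where all genes had -0.007.

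**Figure D5:**
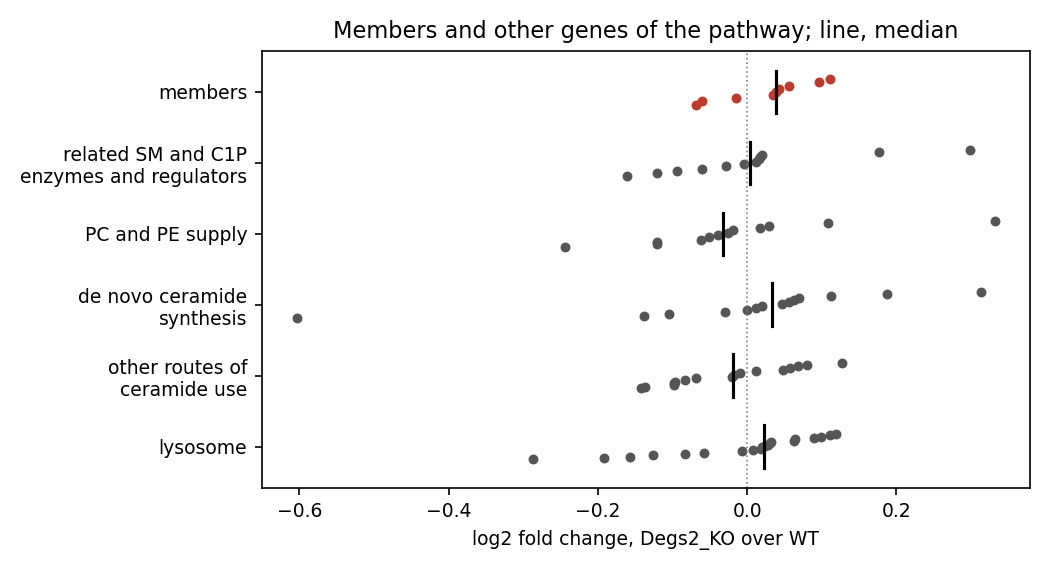
Log2 fold change of Degs2_KO over WT for the 9 tested members and for the genes of 5 related lists (SM, sphingomyelin; C1P, ceramide 1-phosphate; PC and PE, phosphatidylcholine and phosphatidylethanolamine), with 1 point per gene and the median as a line. The members lie between -0.07 and 0.11, and Cers3 at -0.60 lies farthest from 0.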

How the data were processed

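RNA-seq of colon epithelial cells gave 1 table for the 8 libraries. It holds estimated counts of fragments per gene deposited by the authors. The submitters' processing notes name TopHat2 2.0.10, Cuffdiff, Cufflinks 2.1.1, cutadapt 1.9 and mm10; no source used here states the order of steps, the annotation or the strand setting. Low values in a library were multiples of 1 step (0.871 to 1.31), of which between 96.9% and 97.3% of values up to 100 were whole within 0.02, which gave the fragments per library. The 47 genes with any of the 119 failed estimates, which the table lists at 0, did not enter the fit.

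Estimated counts were rounded, filtered with filterByExpr (minimum count 10, minimum total 15) and fitted with edgeR 4.0.16 in R 4.3.3 (TMM, quasi-likelihood F test across all 16132 genes, 2-sided, group as the only term, Benjamini-Hochberg threshold 0.05), and the code was tested on simulated data. Log2 CPM used a prior count of 2. Alternatives used DESeq2 1.42.0, limma 3.58.1 (voom) and other settings. Per-length levels used GENCODE M21 exons on GRCm38. Of the symbols in the 22 lists 1 had no match. Members, lists and the libraries set aside were chosen with earlier results of these data known. Named are the members, Degs2, the 2 genes with the smallest p of each pathway list (none passed the threshold) and the 3 protein-coding genes most correlated with each of the 3 members highest per kb of annotated exon; Col4a3bp, Hoxd13 and the Sgms1 share were singled out beside them.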

Additional observations from a re-analysis of the deposited data

Results flagged for a closer look

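Dixon's rule for a single distant library was applied to the CPM of the 10 members and Degs2 in each genotype, 21 groups of 4 libraries with any spread, and picked 2. Chance picks about 1 in 20 such groups. Sgms1 stood at 34.7 CPM in WT replicate 4, apart from 37.9, 38.2 and 37.9 CPM in the other WT libraries. Enpp7 stood at 0.115 CPM in Degs2_KO replicate 2, where the other Degs2_KO libraries were at 0. The rule picks any value above 0 in such a group, so this pick was fixed in advance, and it rests on 5 fragments.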

How the results depend on the processing

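Over 17 alternatives 0 members were called. The count of all genes called by edgeR was 0 under each edgeR setting and 0 with limma-voom, while DESeq2 called 2, Degs2 and Dlk1. It gave Degs2 a log2 fold change of -1.0633 (adjusted p 6.96e-07). The 183 genes at an unadjusted p under 0.05 became 401 without a filter, 99 with the replicate block, 650 without both Degs2_KO replicate 3 and WT replicate 1, and 133 to 782 with 1 library left out (298 without Degs2_KO replicate 1, 292 without Degs2_KO replicate 3, 782 without WT replicate 1). Same-numbered libraries deviated from their group means with correlations of -0.425, 0.444, -0.56 and -0.102 for replicates 1 to 4. The highest correlation, 0.75, was between Degs2_KO replicate 3 and WT replicate 1, which stood apart from the rest. These 2 libraries weigh on the other correlations, so the check cannot decide whether the numbers are pairs. The main fit did not take them as pairs. Sgms1, Sgms2, Samd8, Smpd2 and Smpd4 did not cross 0, but with 1 library left out the log2 fold change ranged from -0.1008 to -0.0400 for Sgms1, from 0.0001 (without WT replicate 4) to 0.0753 for Sgms2, from 0.0358 to 0.1736 for Samd8, from 0.0095 (without WT replicate 3) to 0.0907 for Smpd2 and from 0.0469 to 0.1845 for Smpd4. It ranged from -0.0038 to 0.0918 for Smpd1, from -0.0874 to 0.0694 for Smpd3, from -0.1252 to 0.0045 for Cerk and from -0.0105 to 0.0945 for Cptp, which crossed 0. The cause was not tested. The length used moved the per-length level of each tested member by more than 1 SD in at least 1 alternative. The coding length is shorter than the exon length for each member, so a rise on it was fixed in advance and does not bear on the order. Among the members, counting limited Enpp7, with 5 fragments in all.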
